A study of Rattus norvegicus with 12 samples.

Results

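The nuclear genes of the respiratory chain and the ATP synthase were compared between livers of rats on a PSC diet and livers of rats on a control diet. Members were the genes whose platform symbol follows the naming patterns of complex I (Nduf), complex II (Sdh), complex III (Uqcr and Cyc1), complex IV (Cox) and complex V (Atp5). Of 18166 genes measured through a single symbol, 80 matched, with 32 in complex I, 4 in complex II, 9 in complex III, 15 in complex IV and 20 in complex V. Names alone decided which genes matched, but this gene family was chosen with earlier results of these data known. Each gene was represented by its transcript cluster with the highest mean signal.

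Liver RNA of 12 male obese Zucker rats, 6 fed 5% PSC and 6 fed a control diet without it, was measured on Affymetrix Rat Gene 2.0 ST arrays, each array holding the RNA of a single animal. PSC is the labels' name for the supplement, and the series title names an oyster mushroom grown by biotechnology. Rats of both diets were homozygous for the fa mutation of the leptin receptor gene, entered the trial at 5 to 6 weeks of age and were killed on day 29. No lean rats were profiled, so both groups carry the obese genotype, and rats shared cages in pairs. Values are log2 signals after RMA, array medians lay between 4.71 and 4.85, and all 9 hepatocyte markers averaged 9.71 or more. Precision is set by how few arrays there are, and in whole liver fewer cells of a type and less RNA per cell cannot be told apart.

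The respiratory chain sits in the inner mitochondrial membrane and passes electrons from NADH and succinate to oxygen. Complexes I, III and IV pump protons as electrons flow, complex II feeds electrons from the citrate cycle without pumping, and complex V uses the proton gradient to make ATP. In hepatocytes this energy serves gluconeogenesis, urea synthesis and lipid handling, and the chain also takes up the electrons released by fatty acid oxidation. Most subunits are encoded in the nucleus, and a small set, which includes catalytic subunits of complexes I, III and IV, is encoded in mitochondrial DNA.

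No gene of the respiratory chain or the ATP synthase passed the test between diets. After adjustment over all genes 0 of the 80 members were called, whereas 2.6% of all genes were, 0.716% higher and 1.89% lower (limma, adjusted p below 0.05, n = 6 per diet). At unadjusted p below 0.05, 7 members were higher in PSC-fed rats and 0 were lower. Over all genes these shares were 9.02% higher and 10.1% lower, or 19.1% in either direction. The members' 8.75% thus stands close to the share of higher genes and below the share in either direction. Over the 4136 genes of the middle range of the members' signals, 24.4% had an unadjusted p below 0.05 in either direction. A fold of at least 1.3 together with unadjusted p below 0.05 was reached by 0 members and by 2.76% of all genes. In 0 members did all 6 PSC arrays lie on 1 side of every control, against 2.19% of all genes, 0.71% with PSC above and 1.48% with PSC below. The 7 members were Atp5pd, Ndufs5, Uqcrq, Ndufa1, Cox7b2, Ndufc1 and Ndufa8, the last named after its value was seen.

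The intervals of the differences were narrow for most members. They were set gene by gene, without adjustment over genes. For 72 of 80 members the 95% interval lay inside a 1.3-fold change in either direction, and for 56 inside a 1.2-fold change. Over all genes these shares were 79% and 47.3%. The 8 genes whose intervals crossed the 1.3-fold line were Ndufa2, Ndufv3, Uqcrb, Cox7b2, Atp5pd, Atp5mc1l1, Atp5hl1 and Atp5mgl4. In simulated data with the spreads of the same 18166 genes, the test found 37.3% of 67 genes given a log2 shift of 0.3, 79.1% of 67 given 0.5 and 100% of 66 given 1. The shifted genes were drawn from the whole array with independent noise, so these rates are not those of the members. The median SD within diets was 0.114 for members and 0.142 for all genes.

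**Figure D1:**
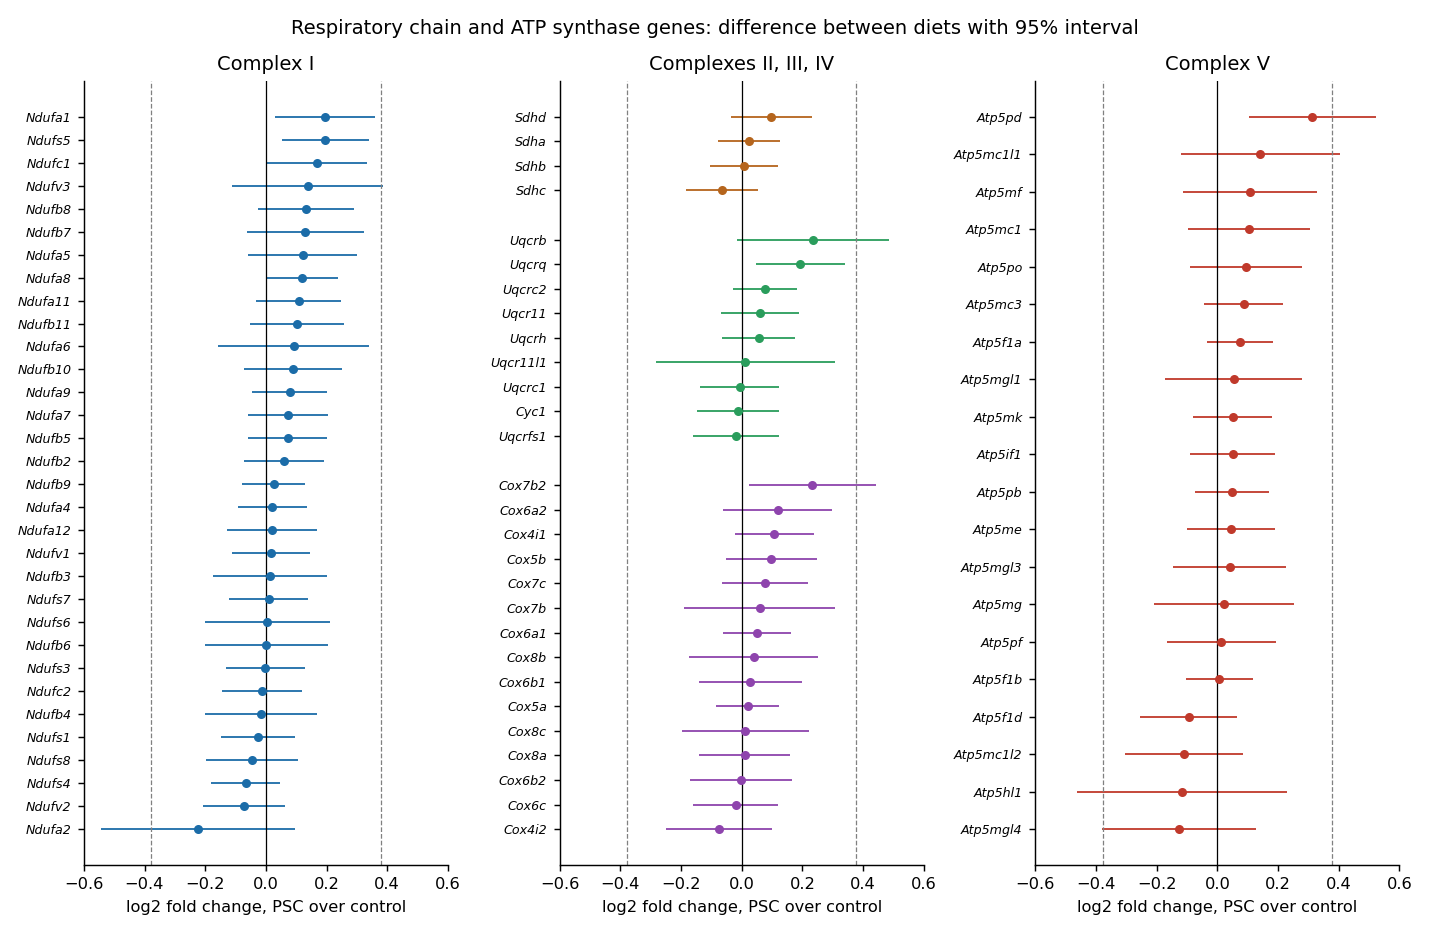
Log2 fold change of each member, PSC over control (x axis), with its 95% interval from limma (bars, n = 6 per diet). Colours mark complexes, dashed lines mark a 1.3-fold change, and Atp5pd has the highest value at 0.31 and Ndufa2 the lowest at -0.23.

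Differences were small but more often above than below 0. Log2 fold changes were above 0 for 61 of 80 members, or 76.2%, and above 0 for 54.3% of all genes. Among genes with a mean log2 signal of at least 5, which 70 members reached, 55 members and 40.8% of all genes were above 0. The median log2 fold change of the members was 0.047, against 0.013 over all genes and -0.038 over the 4136 genes of the middle range of the members' signals. By complex the medians were 0.043 for I, 0.016 for II, 0.057 for III, 0.040 for IV and 0.049 for V. Without control replicate 2 those of I, V and all members were 0.078, 0.080 and 0.073. Without control replicate 3 those of II, III and all members were 0.0067, 0.026 and 0.030. Without PSC replicate 1 that of I was 0.028 and that of IV 0.062, and II was 0.0082 without PSC replicate 1 or 3. Complex I was at 0.066 without PSC replicate 2 and 0.067 without PSC replicate 5, and II at 0.024 without PSC replicate 6. These are descriptions without a test.

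Complex I, the NADH dehydrogenase, is built from a peripheral arm, which holds the NADH site and the iron-sulfur clusters, and a membrane arm, which pumps protons. The 4 members of complex I with unadjusted p below 0.05 all belong to the membrane arm, a split made after values were seen. Over the 16 measured accessory subunits of that arm 14 differences were above 0, with a median of 0.10. Over the 15 subunits of the peripheral arm 9 were above 0, with a median of 0.010. The difference between the arms was not tested.

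Ndufs5, a small accessory subunit of the membrane arm, measured 8.03 to 8.37 (median 8.21) in PSC-fed rats and 7.89 to 8.10 (median 7.995) in controls. Of the PSC arrays 4 lay above every control. Its log2 fold change was 0.20 (SE 0.07, adjusted p = 0.133). Ndufa1, an X-linked subunit needed for assembly of the complex, measured 6.28 to 6.65 (median 6.40) in PSC-fed rats and 6.15 to 6.42 (median 6.23) in controls. The diets overlapped, with 3 PSC arrays above every control, and the difference was 0.20 (SE 0.08, adjusted p = 0.183) on the log2 scale. Ndufc1, also in the membrane arm, had medians of 8.20 in PSC-fed rats and 8.01 in controls, with overlapping ranges and a difference of 0.17 (SE 0.08). Ndufa8 spanned 9.51 to 9.71 in PSC-fed rats and 9.40 to 9.56 in controls, with a difference of 0.12 (SE 0.05).

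Subunits that carry the electrons gave values near 0. Ndufv1, which binds NADH and the flavin, had medians of 8.88 in PSC-fed rats and 8.85 in controls, and a log2 fold change of 0.017 with an interval from -0.11 to 0.15. Ndufs1, which holds several iron-sulfur clusters, had medians of 8.84 in PSC-fed rats and 8.81 in controls, and -0.027 with an interval from -0.15 to 0.09. Ndufa2 had the lowest value of all members, -0.23, and the widest spread in complex I, from 5.96 to 6.97 in PSC-fed rats and from 6.44 to 7.03 in controls (SE 0.15). Its PSC range covered most of the control range, with 2 PSC arrays below every control. Ndufa4, named as a complex I subunit but found in complex IV, had medians of 10.79 in PSC-fed rats and 10.75 in controls, and a log2 fold change of 0.022.

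Complex II, succinate dehydrogenase, is the enzyme shared with the citrate cycle, and all 4 of its subunits were measured. Sdha, the flavoprotein that oxidises succinate, measured 10.24 to 10.38 in PSC-fed rats and 10.27 to 10.31 in controls. Sdhb, the iron-sulfur subunit, measured 9.32 to 9.50 in PSC-fed rats and 9.31 to 9.48 in controls. The fold changes were 1.02 (interval 0.947 to 1.09) for Sdha and 1.01 (interval 0.930 to 1.09) for Sdhb. Of the membrane anchors, Sdhc gave -0.065 and Sdhd 0.098 on the log2 scale, and the diets overlapped in both. All 4 intervals lay inside a 1.2-fold change.

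Complex III passes electrons from ubiquinol to cytochrome c. Its core and redox subunits had values near 0, with Cyc1 (the haem-bearing cytochrome c1) at -0.013, the Rieske iron-sulfur protein gene Uqcrfs1 at -0.018, Uqcrc1 at -0.0067 and Uqcrc2 at 0.077 on the log2 scale. The 4 small subunits were all above 0, with a median of 0.13. Uqcrq, which lies close to the mitochondrially encoded cytochrome b, measured 9.13 to 9.40 (median 9.19) in PSC-fed rats and 8.95 to 9.26 (median 8.995) in controls. Of the controls, replicate 2 reached 9.26 and the other 5 stayed at or below 9.04, while all 6 PSC arrays lay at 9.13 or above. The log2 fold change of Uqcrq was 0.19 (SE 0.07, adjusted p = 0.145).

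Uqcrb, a subunit at the ubiquinone site, measured 4.88 to 5.70 (median 5.15) in PSC-fed rats and 4.79 to 5.19 (median 4.91) in controls. The top value is that of PSC replicate 6, and the other PSC arrays lay between 4.88 and 5.18, within the range of the controls. Its log2 fold change was 0.24 (SE 0.12, adjusted p = 0.295), and 0.13 without PSC replicate 6.

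Complex IV, cytochrome c oxidase, reduces oxygen, and several of its nuclear subunits exist as tissue isoforms. Of the 9 measured subunits that most tissues use, 8 were above 0 and none had an unadjusted p below 0.05. Cox4i1, the main isoform of subunit 4, measured 9.17 to 9.35 in PSC-fed rats and 8.99 to 9.30 in controls, which is 0.11 higher on the log2 scale (SE 0.06, adjusted p = 0.350). Its isoform Cox4i2, known from lung and from low oxygen, measured 4.50 to 4.95 in PSC-fed rats and 4.63 to 4.98 in controls, with -0.075 (SE 0.08). For both isoforms the diets overlapped. Cox6a1, the liver form of subunit 6a, had medians of 11.04 in PSC-fed rats and 10.96 in controls. The muscle form Cox6a2 had medians of 5.00 in PSC-fed rats and 4.93 in controls, and gave 0.12 (SE 0.08). The remaining pairs were close to 0, with Cox6b1 at 0.028 and its testis form Cox6b2 at -0.0017, and with Cox8a at 0.010 and its muscle form Cox8b at 0.040. Signals of different transcript clusters do not rank the isoforms against each other, and Cox7a1 and Cox7a2 were not analysed here.

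Cox7b2, a germ-line form of subunit 7b, had the dimmest signal of all members, with a mean of 2.10. It measured 1.78 to 2.44 (median 2.28) in PSC-fed rats and 1.83 to 2.05 (median 2.00) in controls. Of the PSC arrays 5 lay above every control and PSC replicate 1, at 1.78, lay below every control. The log2 fold change was 0.23 (SE 0.10, adjusted p = 0.211), and without PSC replicate 1 it was 0.32 (adjusted p = 0.0499). This was the only member to pass in any of the 12 fits that left out 1 array. Dim genes as a class lay above 0: the dimmest of 6 signal classes of genes had a median of 0.048, and detection calls were not used here.

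**Figure D2:**
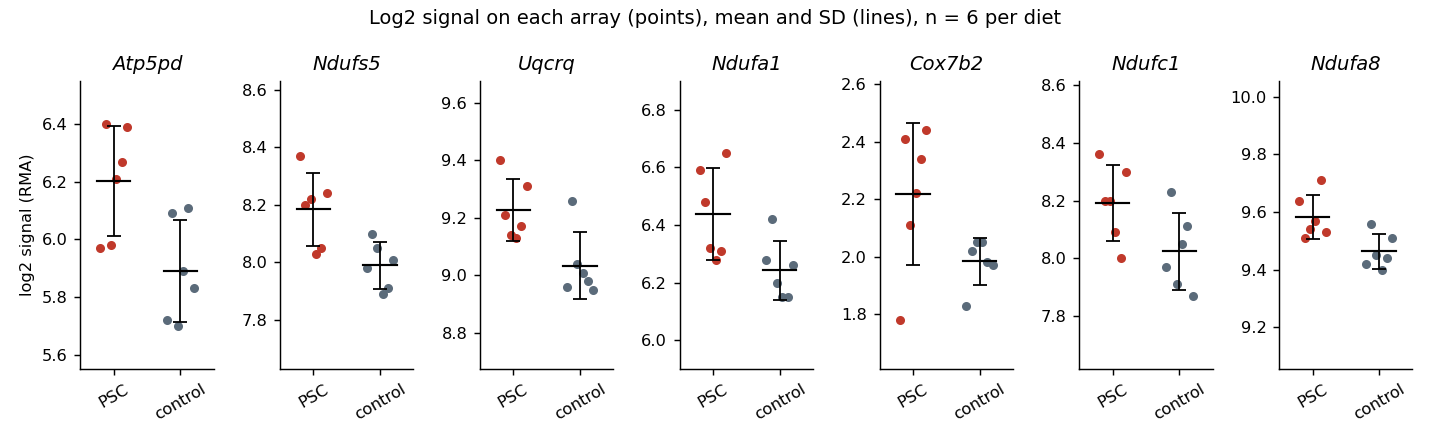
Log2 signal (y axis, each panel spans 1 unit) of the 7 members with unadjusted p below 0.05, for each PSC array (red) and each control array (grey), with the mean and SD (n = 6 per diet). The diets overlap in every panel, and Uqcrq has all but 1 control below every PSC array.

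Complex V, the ATP synthase, has a catalytic head on a rotating stalk, a ring in the membrane and a peripheral stalk that holds the head still. The catalytic subunit gene Atp5f1b measured 11.19 to 11.37 in PSC-fed rats and 11.23 to 11.36 in controls, a fold change of 1.01 (interval 0.931 to 1.08). Its partner in the head, Atp5f1a, measured 10.74 to 10.85 in PSC-fed rats and 10.66 to 10.81 in controls, a fold change of 1.05 (interval 0.976 to 1.14). Of the ring isoforms, which encode the same mature protein, Atp5mc1 gave 0.11 (SE 0.09) and Atp5mc3 gave 0.087 (SE 0.06) on the log2 scale. Atp5if1, which encodes the inhibitor that blocks ATP hydrolysis, had medians of 6.77 in PSC-fed rats and 6.79 in controls, and a log2 fold change of 0.050. Atp5mc2 was not analysed here.

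The lowest p among all members was that of Atp5pd, subunit d of the peripheral stalk. It measured 5.97 to 6.40 (median 6.24) in PSC-fed rats and 5.70 to 6.11 (median 5.86) in controls. Of the PSC arrays 4 lay above every control, and PSC replicates 1 and 3 lay among the controls. The log2 fold change was 0.31 (SE 0.10, interval 0.10 to 0.52, adjusted p = 0.0985), a fold of 1.24. The other 3 measured genes of the peripheral stalk gave 0.013 for Atp5pf, 0.048 for Atp5pb and 0.093 for Atp5po.

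Of the members, 7 are like-named copies rather than the subunit genes themselves: Uqcr11l1, Atp5mc1l1, Atp5mc1l2, Atp5mgl1, Atp5mgl3, Atp5mgl4 and Atp5hl1. RefSeq lists Atp5hl1 as a pseudogene and Atp5mgl1 as a long non-coding RNA. Their probes may share sequence with the parent genes, so their values are uncertain. Atp5hl1 ranged from 6.01 to 7.21 in PSC-fed rats and from 6.47 to 6.91 in controls, the widest PSC range of any member. Without the copies 57 of 73 members were above 0, with a median of 0.050.

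Mitochondrially encoded subunits were covered by 3 clusters, listed as COX1, COX2 and COX3. They were taken to be the core subunits of complex IV because the cyclooxygenase genes Ptgs1 and Ptgs2 have clusters of their own, but the RefSeq table used here did not hold their gene numbers. None passed and all 3 lay below 0, opposite to the median of the nuclear members. COX1 measured 12.71 to 12.87 in PSC-fed rats and 12.80 to 12.87 in controls, and COX3 measured 12.81 to 12.94 in PSC-fed rats and 12.86 to 13.00 in controls. The log2 fold changes were -0.043 (SE 0.05) for COX1, -0.047 (SE 0.05) for COX3 and -0.072 (SE 0.07) for COX2. These signals stand at the top of the array's scale, where saturation would compress differences, and saturation was not tested.

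Helpers of the chain are read against the 2.6% of all genes called and the 19.1% with an unadjusted p below 0.05. Among assembly factors, 0 of 17 for complex I, 0 of 3 for complex II, 0 of 8 for complex III and 0 of 5 for complex V passed (limma), and at unadjusted p below 0.05 these lists held 0, 1, 0 and 0 genes. In complex IV 1 of 22 fell: Cox20, a chaperone of the mitochondrially encoded subunit 2, at 7.51 to 7.78 in PSC-fed rats and 7.74 to 7.97 in controls. Its log2 fold change was -0.25 (SE 0.06, adjusted p = 0.0384). Of 12 genes of coenzyme Q synthesis and 16 of the citrate cycle none passed, and 0 and 4 had an unadjusted p below 0.05. Idh3a, a subunit of the NAD-linked isocitrate dehydrogenase, had the lowest p of the citrate cycle, with -0.24 (SE 0.07, adjusted p = 0.0797). Timmdc1 (0.12), Sdhaf1 (-0.17), Bcs1l (0.092), Tmem70 (-0.048) and Coq10a (0.11) had the lowest p of their lists without passing.

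Of 71 mitochondrial ribosomal protein genes 1 rose and 0 fell, where 0.716% of all genes rose and 1.89% fell. Mrpl15, of the large subunit, measured 7.54 to 7.82 in PSC-fed rats and 7.33 to 7.49 in controls, without overlap, and gave 0.25 (SE 0.06, adjusted p = 0.0395). The median of that list was 0.0050. Among uncoupling proteins, adenine nucleotide carriers and porins 0 of 12 passed, with 1 at unadjusted p below 0.05. The porin gene Vdac3 measured 9.40 to 9.45 in PSC-fed rats and 9.49 to 9.64 in controls, and its difference of -0.16 (SE 0.05) had an adjusted p of 0.108. Of 5 further genes linked to the complexes, with names outside the patterns (Ndufab1, Cox7a2l, Ndufa4l2, Cycs and Dmac2l), none passed. Of these 4 lay below 0, and the median was -0.12, opposite in sign to that of the members. Dmac2l, a factor linked to the ATP synthase, had the lowest p of them (-0.42, SE 0.11, limma adjusted p = 0.0593).

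Of 21 measured regulators of respiratory genes, mostly transcription factors and coactivators but also the mitochondrial RNA polymerase Polrmt and the deacetylase Sirt3, 1 rose and 1 fell, beside 2.6% of all genes called. Ppargc1a, the coactivator PGC-1a, measured 4.83 to 5.33 in PSC-fed rats and 5.31 to 5.79 in controls, with 5 PSC arrays below every control. Its log2 fold change was -0.48 (SE 0.10, adjusted p = 0.0247). Ppara, the nuclear receptor for fatty acids, measured 9.07 to 9.51 in PSC-fed rats and 8.63 to 9.09 in controls and gave 0.41 (SE 0.09, adjusted p = 0.0345). At unadjusted p below 0.05, 2 regulators were higher and 6 lower, 38.1% of the list, against 19.1% of all genes.

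Arrays of the same diet differed in the level of each complex. The mean of the centred log2 signals of complex I was -0.079 to 0.13 on PSC arrays and -0.067 to 0.11 on control arrays. PSC replicates 1 and 6 and control replicate 2 lay highest, and PSC replicates 5 and 2 lay among the lowest. For complex III the range was -0.031 to 0.13 on PSC arrays and -0.11 to 0.090 on control arrays, and for complex V it was -0.030 to 0.065 on PSC arrays and -0.084 to 0.063 on control arrays. The complex IV score followed another order, in which PSC replicate 2 lay highest at 0.095 and PSC replicate 1 lowest of its diet at -0.045. That score also counts the 6 tissue-restricted isoforms, which are dim (median signal 4.355). Each of these isoforms read lower on PSC replicate 1 than on PSC replicate 2, with Cox7b2 at 1.78 and 2.41. The 9 subunits of most tissues were mixed between these arrays. Cox4i1, Cox5a, Cox5b, Cox7b (9.95 and 9.39) and Cox7c read higher on PSC replicate 1. Cox6a1, Cox6b1, Cox6c and Cox8a (9.86 and 10.19) read lower on it. A mean of those 9 alone was not computed, so the order of the score cannot be taken as theirs. Complex II spanned -0.049 to 0.056 on PSC arrays and -0.049 to 0.064 on control arrays.

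After the mean of each diet was taken out of each gene, members tended to move together across the 12 arrays. Over the 70 members with a mean log2 signal of at least 5, the median correlation between pairs was 0.23, against 0.016 between members and other genes of that range and 0.037 among the other genes. Complex I was tightest, with a median of 0.33, and within it the membrane arm reached 0.46 and the peripheral arm 0.17. Complexes II, III, IV and V had 0.10, 0.26, 0.11 and 0.096. Mitochondrial ribosomal protein genes had 0.22. All genes share the same 12 arrays and their normalization, so these are descriptions.

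A single axis held 50.7% of this within-diet variance of the members, and 25.2% for the other genes on their own first axis. These shares come from 70 and 10035 genes that were not scaled to equal spread, and no set of like size was compared. They therefore do not show that such an axis is particular to the members. Along the members' axis PSC replicates 6 and 1 and control replicate 2 scored 1.28, 1.02 and 0.94, and PSC replicates 2 and 5 scored -1.20 and -1.07. The remaining 7 arrays lay between -0.37 and 0.24. Cox7b (correlation with the axis 0.98), Ndufv3 (0.95), Ndufa6 (0.95), Ndufb3 (0.92), Atp5po (0.92) and Atp5mg (0.91) had the highest correlations with the axis. In contrast, Atp5mc1l1 (-0.82), Cox8a (-0.65), Atp5f1d (-0.58), Ndufv1 (-0.53) and Sdha (-0.50) ran against it, and Atp5pd (-0.044) did not follow it.

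**Figure D3:**
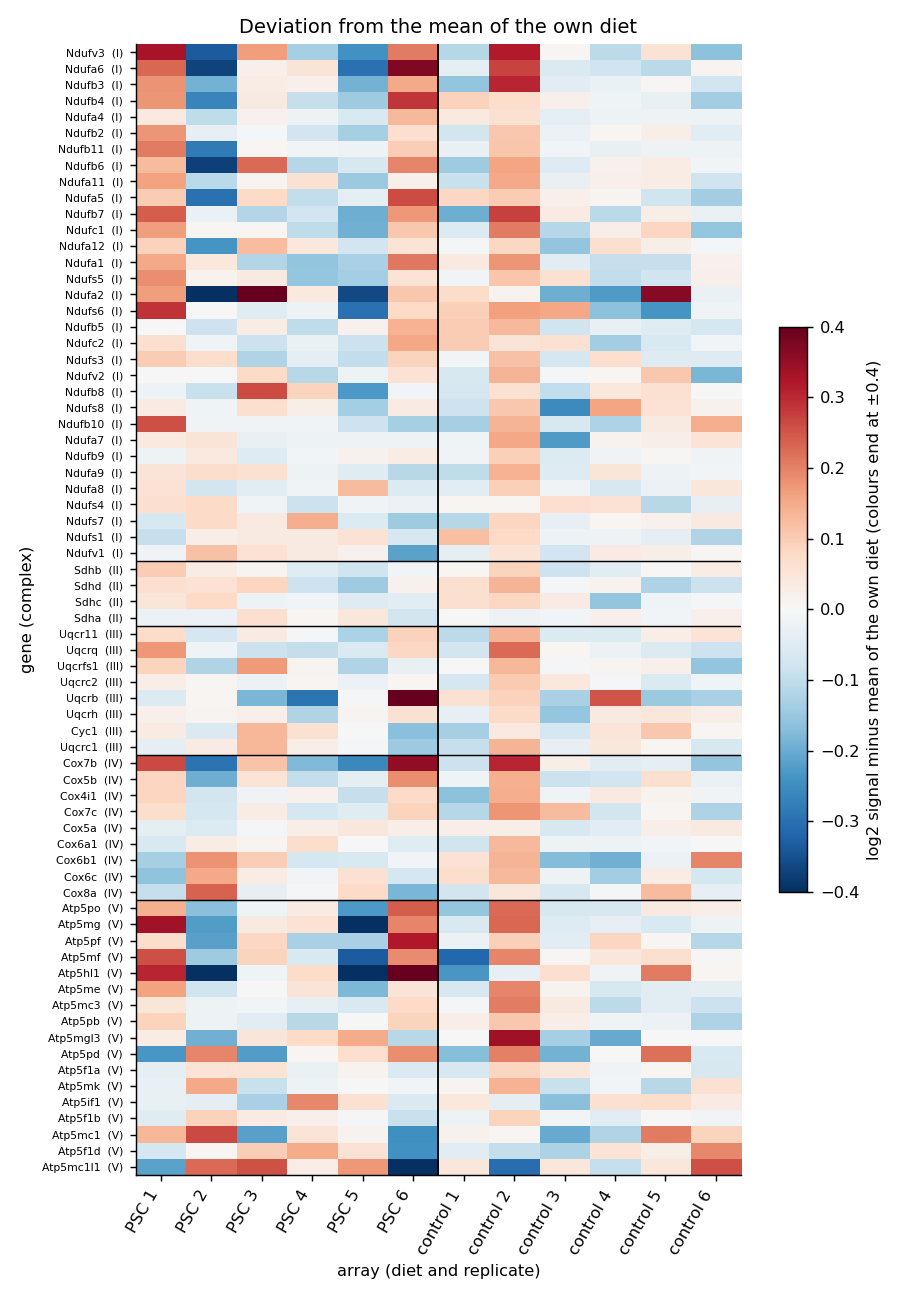
Log2 signal minus the mean of the own diet (colour) for the 70 members with a mean log2 signal of at least 5 (rows, by complex) on 12 arrays (columns, PSC left of control). Columns of PSC replicates 1 and 6 and control replicate 2 are red for most of complex I, and those of PSC replicates 2 and 5 are blue for many of the same genes.

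Markers of some other liver cells differed between diets beside these values. Counts are read against the 54.3% of all genes above 0 and the 2.6% called. Kupffer cell and macrophage markers were above 0 for 12 of 12 genes, with 1 called (Cd163). Their mean centred signal spanned -0.010 to 0.40 on PSC arrays and -0.88 to 0.11 on control arrays. The lowest control value is that of replicate 1 alone, and the other controls lay at -0.28 to 0.11. PSC replicates 2 and 4, at -0.010 and -0.003, lay within the range of those controls. Lymphocyte markers were above 0 for 11 of 12, with 1 called (Nkg7), at 0.027 to 0.16 on PSC arrays and -0.19 to -0.012 on control arrays. Stellate cell markers were below 0 for 11 of 11, with 5 called, at -0.32 to 0.075 on PSC arrays and 0.083 to 0.34 on control arrays. Hepatocyte markers were above 0 for 6 of 9 with 0 called, at -0.061 to 0.11 on PSC arrays and -0.099 to 0.016 on control arrays. Muscle markers, which bear on the muscle isoforms, were above 0 for 7 of 9 with 0 called. The muscle and adipocyte lists are dim, with median log2 signals of 4.465 and 4.233, and dim genes in general lay more often above 0. Of all genes with mean signals of 3.429 to 4.424, 76.9% lay above 0, and of those at 4.424 to 5.325, 65.4% did. Adipocyte markers were above 0 for 8 of 10, but Fabp4 (-1.5, limma adjusted p = 0.00514) and Cidea (-1.07, limma adjusted p = 0.0109) fell. The list's mean signal was -0.24 to 0.067 on PSC arrays and 0.060 to 0.11 on control arrays. Cidea was not dim, at 7.42 to 8.82 on PSC arrays and 9.11 to 9.60 on control arrays, whereas Adipoq (0.072) and Plin1 (0.042) were dim. As its genes went opposite ways, the fall of the list's mean cannot be read as a fall of adipocytes. Of 7 bile duct markers Spp1 fell (-0.63, adjusted p = 0.0287), and the list lay at -0.14 to 0.070 on PSC arrays and -0.015 to 0.096 on control arrays. Endothelial markers (6) and red cell markers (4) had 0 called (limma), with 3 and 1 at unadjusted p below 0.05. The part of cell makeup in the members' values was not tested.

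Promoters of the members share sequence features that their names do not use. Windows of 300 bases, from 250 before to 50 after the RefSeq start, were found for 68 of the 80 members (rat assembly GRCr8). They were searched on both strands for the motifs of factors known to drive respiratory genes: NRF1 (GCGCNNGCG), the ETS factor GABP (CCGGAAG) and YY1 (AAGATGGCG). At least 1 motif occurred in 39 of 68 windows, or 57.4%, against 28.2% of 14503 windows of genes on the array and 20.1% of all 27457. The NRF1 motif was in 20 windows (29.4%, against 17.6% of genes on the array and 11.9% of all), the ETS motif in 19 (27.9%, against 12.6% and 9.22%) and the YY1 motif in 10 (14.7%, against 2.54% and 1.93%). Base composition was not matched, and no test was made. ETS and YY1 matches overlapped in 0 windows.

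**Figure D4:**
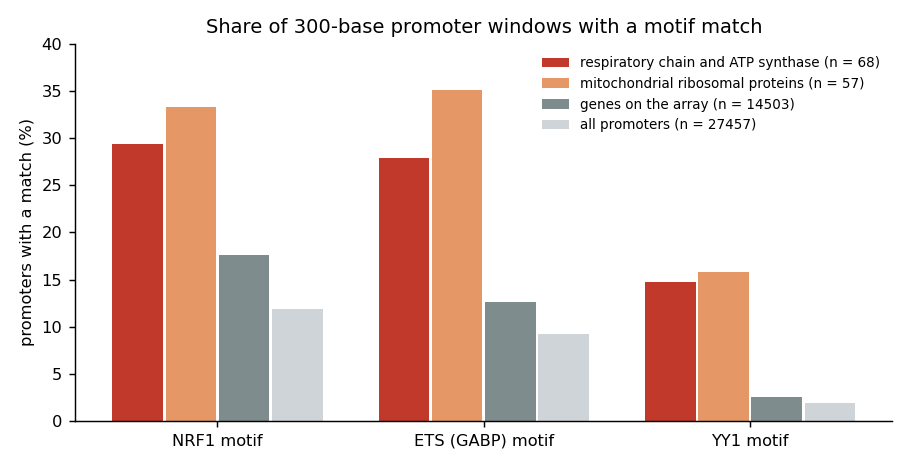
Share of promoter windows with a match (y axis, percent) for 3 motifs, in members, mitochondrial ribosomal protein genes, genes on the array and all promoters. Members stand at 29.4%, 27.9% and 14.7% for NRF1, ETS and YY1, and mitochondrial ribosomal protein genes at 33.3%, 35.1% and 15.8%.

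The YY1 matches fell in 7 genes of complex I (Ndufa2, Ndufa6, Ndufa9, Ndufb8, Ndufs4, Ndufs6 and Ndufs7) and in Uqcrc1, Atp5mf and Atp5pf. Of the 10 matches 8 began after the RefSeq start, with a median at base 13, whereas ETS and NRF1 matches had median positions of -52 and -54. Complex IV windows held the ETS motif in 3 of 12 and neither of the others. Those 12 include the tissue isoforms Cox6a2, Cox6b2, Cox7b2, Cox8b and Cox8c, which held none. The 39 members with any motif had a median log2 fold change of 0.072 and the 29 with none 0.022. For YY1 alone the order was the other way, 0.012 with the motif and 0.049 without. The median of the members' correlations with other members was 0.33 with any motif and 0.37 without. The 29 without a motif include these dim isoforms and like-named copies such as Atp5mc1l2 and Atp5mgl4, and the 39 with one include neither. The groups thus differ in more than motifs, and these differences were not tested.

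Windows are printed below for the 3 members with the lowest p that have one (Ndufs5, Uqcrq and Ndufa1). Printed with them are 3 picked because they combine the motifs in different ways (Ndufa6, Uqcrc1 and Atp5me). None of the 29 windows without a motif is among them, so the printed windows cannot show whether motifs go with the difference between diets. Each reads 5′ to 3′ on the gene's strand, with the motif matches in capitals.
Ndufs5: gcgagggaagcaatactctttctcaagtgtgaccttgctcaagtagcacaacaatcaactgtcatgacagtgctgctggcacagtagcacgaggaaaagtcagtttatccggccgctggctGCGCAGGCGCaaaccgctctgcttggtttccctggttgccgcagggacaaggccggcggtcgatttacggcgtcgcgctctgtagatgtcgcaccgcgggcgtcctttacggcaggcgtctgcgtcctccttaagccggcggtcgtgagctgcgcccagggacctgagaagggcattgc
Uqcrq: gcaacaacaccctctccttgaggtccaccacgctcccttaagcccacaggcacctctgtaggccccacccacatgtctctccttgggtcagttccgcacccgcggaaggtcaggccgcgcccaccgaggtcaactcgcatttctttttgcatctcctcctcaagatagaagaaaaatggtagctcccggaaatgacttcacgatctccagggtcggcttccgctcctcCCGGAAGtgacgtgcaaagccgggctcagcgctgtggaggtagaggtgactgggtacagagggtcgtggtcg
Ndufa1: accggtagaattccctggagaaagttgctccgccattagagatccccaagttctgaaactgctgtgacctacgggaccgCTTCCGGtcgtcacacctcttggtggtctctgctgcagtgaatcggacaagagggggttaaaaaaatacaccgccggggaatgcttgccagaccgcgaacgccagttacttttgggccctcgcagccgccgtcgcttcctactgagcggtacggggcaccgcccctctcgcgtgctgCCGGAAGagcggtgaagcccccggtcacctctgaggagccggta
Ndufa6: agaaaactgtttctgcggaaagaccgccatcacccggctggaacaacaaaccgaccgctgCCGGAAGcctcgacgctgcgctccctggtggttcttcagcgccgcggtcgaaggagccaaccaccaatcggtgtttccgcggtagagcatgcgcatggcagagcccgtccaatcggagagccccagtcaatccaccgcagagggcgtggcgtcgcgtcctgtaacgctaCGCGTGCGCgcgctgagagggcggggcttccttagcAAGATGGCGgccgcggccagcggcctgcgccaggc
Uqcrc1: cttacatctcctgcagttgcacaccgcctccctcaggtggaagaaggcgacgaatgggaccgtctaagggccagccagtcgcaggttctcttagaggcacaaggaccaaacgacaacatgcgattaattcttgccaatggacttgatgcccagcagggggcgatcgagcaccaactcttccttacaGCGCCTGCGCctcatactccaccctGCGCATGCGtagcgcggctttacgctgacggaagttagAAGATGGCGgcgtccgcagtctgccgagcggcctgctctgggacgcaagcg
Atp5me: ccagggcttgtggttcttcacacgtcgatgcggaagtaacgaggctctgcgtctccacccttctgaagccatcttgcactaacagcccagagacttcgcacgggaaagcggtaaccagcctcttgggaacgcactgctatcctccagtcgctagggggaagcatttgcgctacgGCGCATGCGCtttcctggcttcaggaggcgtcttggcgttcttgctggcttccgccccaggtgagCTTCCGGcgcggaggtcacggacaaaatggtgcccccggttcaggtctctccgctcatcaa
Ndufs5 (chr5:141264353-141264652, minus strand) carries an NRF1 match, and Uqcrq (chr10:38089929-38090228, minus strand) and Ndufa1 (chrX:121293506-121293805, minus strand) carry ETS matches, Ndufa1 at bases -171 and 7. Ndufa6 (chr7:115750268-115750567, minus strand) holds a match of each motif, Uqcrc1 (chr8:118467973-118468272, plus strand) holds NRF1 and YY1 matches, and Atp5me (chr14:1464610-1464909, plus strand) holds NRF1 and ETS matches. Their log2 fold changes were 0.20, 0.19 and 0.20 for Ndufs5, Uqcrq and Ndufa1, and 0.092, -0.0067 and 0.045 for Ndufa6, Uqcrc1 and Atp5me. A match describes these letters and does not show that a factor binds. Of the factors, Gabpa, Nrf1 and Yy1 were measured and were not called.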

How the data were processed

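The authors deposited log2 signals per transcript cluster, and the submitters' processing notes name Affymetrix Expression Console and RMA. Versions and filters are not given there, and detection calls were not used here. RMA is a background correction, quantile normalization and median polish, which compresses differences of dim genes.

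Clusters were named through the platform annotation, and 18511 with 1 symbol were kept, while 575 with several, 8 of which name a member symbol, were left out. Those 8 include a cluster that names both Ndufs5 and Ndufs5-ps2 and another that names both Uqcrb and Uqcrbl1. The values of Ndufs5 and Uqcrb rest on their single-symbol clusters alone. The highest-mean cluster stood for each gene, and 5 members had more than 1. All 18166 genes were fitted with limma 3.58.1 (R 4.3.3), two-sided, and adjusted by Benjamini-Hochberg over all of them at 0.05. Groups came from sample titles. The test was checked on simulated data. No filter was applied, and 70 of 80 members had a mean of at least 5.

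The members and lists were chosen with earlier results of these data known. Named are members with an adjusted p below 0.05, the 3 lowest p per complex, fixed catalytic subunits and isoform pairs, and per further list the called genes and the lowest p. Alternatives changed the cluster rule, filter, normalization, prior, weights, block, threshold and arrays. Leaving out PSC replicates 2 and 5 together was added after seeing the data. The arms of complex I and the motifs were also chosen then, and the NRF1 and YY1 motifs were shortened to 9 letters after longer forms had been searched. Promoters are RefSeq windows at the first listed start.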

Additional observations from a re-analysis of the deposited data

Results flagged for a closer look

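In 6 of 72 groups of 6 arrays a single array lay far from the other 5 of its diet, where chance gives about 1 in 20 groups. Control replicate 2 was the highest control in 4 of them. For Uqcrq it reached 9.26, with the other controls at 8.95 to 9.04. For Atp5f1b it reached 11.36, with the others at 11.23 to 11.27. Its mean centred signal over complex I was 0.105, with the others at -0.067 to -0.025, and over all members it was 0.0784, with the others at -0.068 to -0.014. Uqcrb stood at 5.70 on PSC replicate 6, with the other PSC arrays at 4.88 to 5.18. Cox7b2 stood at 1.83 on control replicate 1, with the other controls at 1.97 to 2.05.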

How the results depend on the processing

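Among alternatives that kept all 12 arrays, a member passed only at the threshold of 0.1, where 1 did (Atp5pd). Leaving out 1 array gave 0 to 1 members called, the 1 being Cox7b2 without PSC replicate 1 (adjusted p = 0.0499). The count of members with unadjusted p below 0.05 was 4 to 10 without 1 array (4 without PSC replicate 1 or control replicate 1). It was 16 without PSC replicates 2 and 5, a pair chosen after the data were seen for lying low on the members' own axis, so that this rise follows from the choice. No alternative gave a member with unadjusted p below 0.05 a fold of 1.3. Medians of every complex stayed above 0 under all alternatives but moved: they spanned 0.028 to 0.093 for I, 0.0067 to 0.030 for II, 0.026 to 0.072 for III, 0.0050 to 0.062 for IV, 0.039 to 0.080 for V and 0.030 to 0.073 for all members, with the highest of I and the lowest of IV without PSC replicates 2 and 5. Of 625 alternative values of the 30 named members, 46 changed sign, each for a gene that passed in neither fit. The count of genes called over the whole array, 473, was 769 with a mean log2 signal of at least 5, 1140 at a threshold of 0.1, 225 without PSC replicates 2 and 5, and 142 to 735 without 1 array. It moved by more than 1.5 times without control replicate 1 (142), 3 (252), 4 (164), 5 (298) or 6 (188), and without PSC replicate 1 (206), 4 (735), 5 (199) or 6 (160). With the replicate number as a block 94 genes and 0 members were called, 5 members had unadjusted p below 0.05, and the lowest adjusted p was 0.0701 for Atp5pd. Same-numbered arrays correlated at -0.151 to 0.111, and 1 of 6 PSC arrays correlated best with its own number. The labels do not say what the number stands for, and these correlations cannot show whether same-numbered arrays share anything else. Cage mates were not identified in the labels, so cage was not fitted.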
